A study of Homo sapiens with 16 samples.

Results

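The 10 genes described here encode the machinery that takes a cell from G2 into mitosis: the kinase CDK1, its cyclins CCNB1 and CCNB2, the phosphatases CDC25B and CDC25C, the Polo kinases PLK1 and PLK4, the Aurora kinases AURKA and AURKB, and the transcription factor FOXM1. They were taken by symbol from the 19775 genes that the platform annotation names, through every probe set that carries exactly 1 gene symbol equal to a listed gene, which gave 23 of 41097 such probe sets. Levels were measured on 16 Affymetrix Human Genome U133 Plus 2.0 arrays of 4 established human lines of T cell acute lymphoblastic leukaemia, labelled CEM, CUTL1, DND41 and Jurkat. All cells grew in RPMI with fetal calf serum, and each line was kept for 15 h with the solvent DMSO alone or with PD-0332991 at 1 uM, on 2 arrays for each line and treatment (8 groups). PD-0332991, also called palbociclib, inhibits the kinases CDK4 and CDK6. Each line is a single culture-adapted line whose genotype is not given in the sources used here, and the labels do not say whether the 2 arrays of a group came from separate cultures, so every p-value measures the spread between arrays, which may be technical. Precision is limited throughout by having 2 arrays in a group.

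As background, CDK4 and CDK6 with D-type cyclins act in G1, where they phosphorylate RB and so release the E2F factors that switch on the genes of S phase. CDK1 bound to cyclin B drives entry into mitosis once CDC25 phosphatases strip the inhibitory phosphates that WEE1 and PKMYT1 place on it. PLK1 and AURKA promote that switch, AURKB acts on chromosomes as part of the passenger complex, and PLK4 sets off the duplication of centrioles. FOXM1 and B-MYB, working with the MuvB complex, raise the transcription of many of these genes late in the cycle, in part through a short promoter element called the CHR, and CCAAT boxes lie close to the start of many of them. In a mixed culture such RNAs are high in the cells that are in G2 and mitosis. The arrays read RNA of whole cultures, so fewer cells in those phases and less RNA per cell cannot be told apart in any value below.

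The promoter sequences of 4 members are shown so that CDK1, with an average change of -1.10, can be read beside its cyclins CCNB1 (-0.36) and CCNB2 (-0.50) and beside PLK1 (-0.40). Each is the run of 200 bases before a RefSeq transcript start, read 5′ to 3′ from a RefSeq table of build GRCh38.p14, with the CHR letters TTTGAA and the letters CCAAT in capitals.
CDK1, chr10:60778131-60778330, + strand: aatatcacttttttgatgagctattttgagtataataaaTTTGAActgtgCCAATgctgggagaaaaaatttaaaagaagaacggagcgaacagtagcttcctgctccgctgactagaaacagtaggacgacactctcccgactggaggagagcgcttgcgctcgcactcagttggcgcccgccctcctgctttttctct
CCNB1, chr5:69166950-69167149, + strand: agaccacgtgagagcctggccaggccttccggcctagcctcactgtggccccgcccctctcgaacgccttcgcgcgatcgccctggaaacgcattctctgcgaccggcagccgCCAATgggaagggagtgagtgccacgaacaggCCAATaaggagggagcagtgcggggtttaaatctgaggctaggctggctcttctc
CCNB2, chr15:59104946-59105145, + strand: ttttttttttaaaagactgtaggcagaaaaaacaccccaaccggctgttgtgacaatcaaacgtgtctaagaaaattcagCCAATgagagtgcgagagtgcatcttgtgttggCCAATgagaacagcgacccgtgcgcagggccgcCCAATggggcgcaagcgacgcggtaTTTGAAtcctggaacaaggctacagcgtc
PLK1, chr16:23678689-23678888, + strand: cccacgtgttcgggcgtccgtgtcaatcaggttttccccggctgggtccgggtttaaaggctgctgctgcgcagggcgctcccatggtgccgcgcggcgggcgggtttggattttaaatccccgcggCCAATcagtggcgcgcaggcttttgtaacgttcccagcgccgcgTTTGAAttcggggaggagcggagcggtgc
The base before the transcript start is -1. CCNB2 had CCAAT with its first base at -120, -87 and -54 and the CHR letters at -29. PLK1 had 1 CCAAT at -73 and the CHR letters at -29, the same distance from its start as in CCNB2. CCNB1 had CCAAT at -87 and -55 and no TTTGAA in the stretch. Only that spelling of the CHR was searched, so a CHR with other letters would be missed in CCNB1 and in the counts below. CDK1, which has 2 starts in the table, had TTTGAA at -161 and CCAAT at -150 of the start shown. Its other start, at chr10:60778478, had TTTGAA nearer, at -69 and -13 and on the opposite strand at 10. CCAAT lay on the opposite strand at -78 and -46 of that start. The table held windows for 8 of the 10 members, all but AURKA and FOXM1, each from 250 bases before to 50 after a start. Searched on both strands, TTTGAA lay in a window of 5 of the 8 (CDK1, CCNB2, CDC25C, PLK1 and PLK4), against 18.2% of the 27305 genes in the table and 15.2% of its windows. CCAAT lay in a window of 8 of the 8, against 39.7% of genes and 34.6% of windows, and both motifs in 1 window in 4 of the 8, against 7.26% of genes and 5.90% of windows. An 8-base E2F motif (TTTGGCGC, TTTCCCGC, TTTGCCGC or TTTCGCGC) lay in 1 of the 8, CDK1, where it overlapped neither other motif, against 3.99% of genes and 3.31% of windows. These matches describe letters in a window and were not set against any binding data. The 8 members had 18 windows and the 27305 genes 35116, so the members had more windows a gene in which a motif could lie. Their counts are thus not on the same footing as the share of genes or that of windows.

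The deposited values were RMA intensities on a linear scale, which were taken to log2, and 1 probe set, the one with the highest mean, stood for each gene. Testing was limited to genes whose mean in 1 or more lines (4 arrays each) was no lower than the median of all values, 29.5 or 4.88 on the log2 scale, which left 13483 genes. All 10 members passed, and the lowest level of a member on any array was 5.54, so no member depended on 1 group to be tested. A change is the log2 level with PD-0332991 minus that with DMSO, and "fell" is used where limma's adjusted p was under 0.05 over all genes tested.

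All 10 members fell on average over the 4 lines, by 0.19 to 1.50 log2 units, with a median change of -0.77 where the median of all tested genes was 0.04. On the same test 20.0% of all genes were lower. In single lines 6 members fell in CEM (11.6% of all genes lower), 10 in CUTL1 (12.7%), 9 in DND41 (17.1%) and 10 in Jurkat (11.4%), and the median change of the 10 was -0.36, -0.95, -0.44 and -1.31 in that order. The medians of all genes in the 4 lines lay between 0.01 and 0.05. In 38 of the 40 gene and line combinations both arrays with PD-0332991 were below both DMSO arrays, the overlaps being PLK1 in CEM and CDC25B in DND41. That separation was not counted over all genes, so it is a description without a background. Of the 40 changes 35 passed the test, for which the shares by line are those given above. When each line counted as 1 replicate, 7 members still fell (9.53% of all genes were lower), while limma gave adjusted p = 0.0534 for AURKA, 0.0732 for PLK1 and 0.196 for CDC25B. Without the _x_at and _s_at probe sets, which can read more than 1 transcript, only 6 members could be tested, with another probe set for CCNB1 and PLK4. The members that fell were then 6 on average, 3 in CEM, 5 in CUTL1, 6 in DND41 and 5 in Jurkat. No share of all genes is given for that fit, and the shares by line above belong to the main one.

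**Figure D1:**
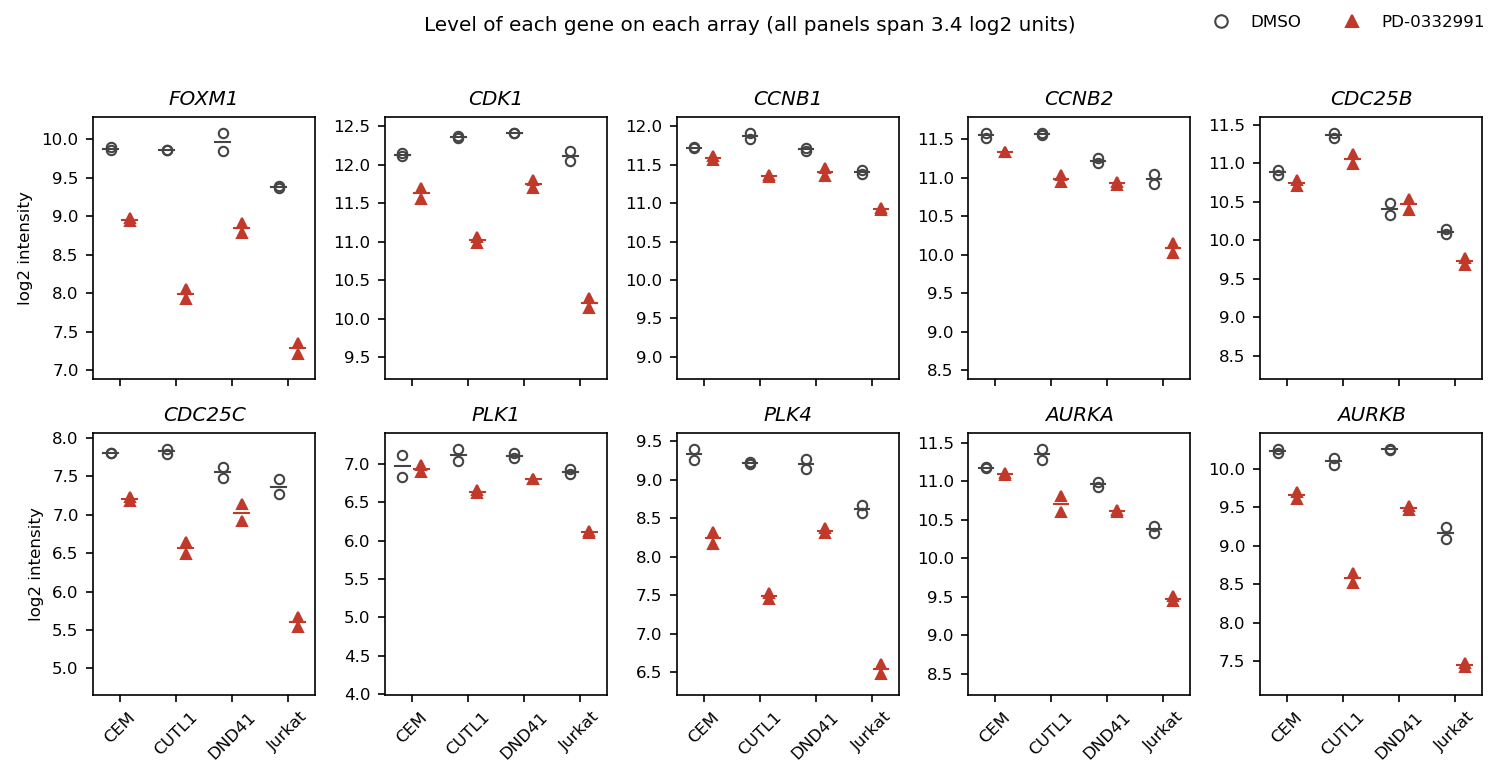
Log2 intensity (vertical axis) of each of the 10 members on every array, by line, with open circles for DMSO, filled triangles for PD-0332991 and short bars for group means. Every panel spans the same 3.4 log2 units, so the drops can be compared by eye: FOXM1 and PLK4 drop by over 2 log2 units in Jurkat, and the groups overlap for PLK1 in CEM and CDC25B in DND41.

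FOXM1, the transcription factor of the set, had the largest average fall of the members. On probe set 202580_x_at its log2 levels with DMSO were 9.85 and 9.90 in CEM, 9.86 and 9.86 in CUTL1, 10.09 and 9.85 in DND41, and 9.37 and 9.39 in Jurkat. With PD-0332991 they were 8.97 and 8.94, 7.92 and 8.05, 8.91 and 8.78, and 7.21 and 7.35 in the same order. No treated array reached a DMSO array of its own line, and the Jurkat and CUTL1 treated arrays lay lowest. The average change was -1.50 ± 0.04 (SE, limma adjusted p = 1.55e-10), a level 2.84-fold lower, and the change ran from -0.92 in CEM and -1.12 in DND41 to -1.88 in CUTL1 and -2.10 in Jurkat. By the size of its average fall FOXM1 ranked 102 among the 13483 genes, followed among the members by PLK4 at 112, AURKB at 191, CDK1 at 208 and CDC25C at 234. The other members ranked between 797 (CCNB2) and 2180 (CDC25B). The probe set that reads FOXM1 is of the kind that can share sequence with other transcripts, and it is the only one of the gene among those with 1 symbol.

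CDK1, the kinase that carries out mitotic entry, fell in every line. Its probe set 203213_at read 12.14 and 12.11 in CEM, 12.34 and 12.37 in CUTL1, 12.41 and 12.42 in DND41, and 12.05 and 12.17 in Jurkat with DMSO. With PD-0332991 it read 11.70 and 11.55, 11.06 and 10.98, 11.80 and 11.70, and 10.13 and 10.27. The DMSO arrays lay between 12.05 and 12.42, whereas the treated arrays spread from 10.13 in Jurkat to 11.80 in DND41. The change was -0.50 in CEM, -0.67 in DND41, -1.34 in CUTL1 and -1.91 in Jurkat (each SE 0.08), or 1.41-fold, 1.59-fold, 2.53-fold and 3.76-fold lower. All 4 CDK1 probe sets fell on average, the other ones by 1.35 (210559_s_at), 1.34 (203214_x_at) and 1.34 (231534_at). The last of these gave -1.39 in both DND41 and Jurkat, so on it the order of those lines was not seen. It was dim in Jurkat, at 4.70 and 5.22 with DMSO and 3.71 and 3.44 with PD-0332991, where the limit for testing was 4.88. Its change in CEM did not pass the test (limma adjusted p = 0.082).

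CCNB1, the cyclin that CDK1 needs for mitosis, moved much less. On 214710_s_at the DMSO arrays read 11.73 and 11.71 in CEM, 11.92 and 11.83 in CUTL1, 11.72 and 11.68 in DND41, and 11.38 and 11.43 in Jurkat. The treated arrays read 11.61 and 11.57, 11.36 and 11.35, 11.35 and 11.45, and 10.91 and 10.94. The groups did not overlap within any line, but the gaps were small. The average change was -0.36 ± 0.03 (SE, limma adjusted p = 2.42e-06), and CCNB1 fell by 0.52 in CUTL1, 0.30 in DND41 and 0.48 in Jurkat, whereas the change in CEM was -0.13 (95% interval -0.27 to 0.01, limma adjusted p = 0.15). CCNB1 was the only member with its largest fall in CUTL1. Its second probe set, 228729_at, fell by 0.20 on average in the fit over probe sets (limma adjusted p = 0.0126), with 0.20 in CEM, -0.32 in CUTL1, -0.52 in DND41 and -0.15 in Jurkat, and only the DND41 value passed the test there (adjusted p = 0.006).

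CCNB2, the other B-type cyclin measured, fell by 0.50 ± 0.04 on average (SE, limma adjusted p = 4.89e-07). On 202705_at the Jurkat arrays read 11.05 and 10.91 with DMSO and 10.02 and 10.15 with PD-0332991, and the CEM arrays 11.59 and 11.52 against 11.33 and 11.34. Jurkat thus showed the wider gap, -0.90, and CEM the narrower one, -0.22. CCNB2 fell by 0.58 in CUTL1 and 0.30 in DND41, but with the mean of all its probe sets these changes were -0.14 (adjusted p = 0.224) and -0.12 (adjusted p = 0.249) in limma. The CEM call was close to the threshold (limma adjusted p = 0.0433) and was lost under 16 of 26 alternatives, among them leaving out either CEM DMSO array (-0.19 and -0.25, adjusted p = 0.2 and 0.0865) or either treated CEM array (-0.21 and -0.22, adjusted p = 0.151 and 0.118), or 1 treated array of CUTL1 or Jurkat or 1 DMSO array of DND41, where the change kept its value and the adjusted p ran from 0.051 to 0.0585. The DND41 call was also lost with cyclic loess (-0.21, adjusted p = 0.0542) and without DMSO replicate 1 (-0.27, adjusted p = 0.0763) or treated replicate 1 (-0.27, adjusted p = 0.0622). A second CCNB2 probe set, 232764_at, changed by -0.14 on average (limma adjusted p = 0.0892), and another, 232768_at, was too dim to test.

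The phosphatases that activate CDK1 moved unequally. CDC25C (205167_s_at), which acts at the entry into mitosis, read 7.80 and 7.79 in CEM, 7.79 and 7.86 in CUTL1, 7.48 and 7.62 in DND41, and 7.46 and 7.26 in Jurkat with DMSO. With PD-0332991 it read 7.23 and 7.17, 6.65 and 6.49, 7.13 and 6.92, and 5.67 and 5.54. No groups overlapped, and the Jurkat treated arrays stood lowest by a wide gap. CDC25C fell by 1.03 ± 0.05 on average (SE, limma adjusted p = 1.3e-08), from 0.53 in DND41 and 0.60 in CEM to 1.25 in CUTL1 and 1.76 in Jurkat, and by 0.82 on its second testable probe set, 217010_s_at. On the latter the CEM change of -0.33 did not pass the test (limma adjusted p = 0.119). CDC25B (201853_s_at), which is thought to act earlier, at the centrosome, read 10.85 and 10.92 in CEM, 11.33 and 11.40 in CUTL1, 10.49 and 10.33 in DND41, and 10.15 and 10.07 in Jurkat with DMSO. Its treated arrays read 10.71 and 10.79, 10.99 and 11.12, 10.53 and 10.40, and 9.77 and 9.68. In DND41 the treated and DMSO arrays overlapped, with a change of 0.06 (95% interval -0.12 to 0.24), which turned to -0.02 when arrays were centred on their medians and to -0.02 or -0.01 without DMSO replicate 2 or treated replicate 1. CDC25B fell by 0.31 in CUTL1 and 0.38 in Jurkat, and its change in CEM was -0.14 (limma adjusted p = 0.26). The average fall of 0.19 ± 0.04 (SE, limma adjusted p = 0.00245) was the smallest among the members. The call was lost without the line Jurkat (-0.13, adjusted p = 0.0721), and the calls in CUTL1 and Jurkat were lost without CUTL1 DMSO replicate 2 (-0.27, adjusted p = 0.0869), CUTL1 treated replicate 1 (-0.24, adjusted p = 0.138) or Jurkat treated replicate 2 (-0.34, adjusted p = 0.0553).

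The Polo kinases differed as well. PLK4 (204887_s_at), the centriole kinase, read 9.25 and 9.41 in CEM, 9.23 and 9.20 in CUTL1, 9.13 and 9.27 in DND41, and 8.56 and 8.68 in Jurkat with DMSO. With PD-0332991 it read 8.32 and 8.16, 7.45 and 7.53, 8.30 and 8.37, and 6.47 and 6.61. Groups were apart in all 4 lines, and Jurkat had the lowest arrays under both treatments. PLK4 fell by 1.44 ± 0.04 on average (SE, limma adjusted p = 2.06e-10), by 0.87 in DND41, 1.09 in CEM, 1.73 in CUTL1 and 2.08 in Jurkat, and its second testable probe set, 204886_at, fell by 1.52. PLK1 (202240_at), the Polo kinase of mitotic entry and exit, read 7.11 and 6.82 in CEM, 7.03 and 7.20 in CUTL1, 7.13 and 7.07 in DND41, and 6.87 and 6.93 in Jurkat with DMSO. The treated arrays read 6.98 and 6.89, 6.62 and 6.65, 6.80 and 6.80, and 6.10 and 6.12. In CEM both treated arrays lay between the DMSO arrays, and the change there was -0.04 (95% interval -0.24 to 0.17), which turned to 0.11 without DMSO replicate 1 and 0.01 without treated replicate 2. PLK1 fell by 0.48 in CUTL1, 0.30 in DND41 and 0.79 in Jurkat, with an average of -0.40 ± 0.05 (SE, limma adjusted p = 2.21e-05). Its DND41 call (adjusted p = 0.0308) was lost when any 1 of the 4 DND41 arrays was left out, with changes of -0.33 to -0.27 and adjusted p of 0.0777 to 0.143.

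AURKB, the Aurora kinase of the chromosomal passenger complex, fell in all 4 lines, and AURKA, the Aurora kinase of the spindle poles, in 3. AURKB (209464_at) read 10.26 and 10.20 with DMSO and 9.61 and 9.69 with PD-0332991 in CEM, and 10.14 and 10.05 against 8.51 and 8.65 in CUTL1. It read 10.26 and 10.24 against 9.46 and 9.52 in DND41, and 9.24 and 9.08 against 7.48 and 7.43 in Jurkat. Each treated pair lay below its DMSO pair, with changes of -0.58 in CEM, -0.76 in DND41, -1.51 in CUTL1 and -1.71 in Jurkat. The average was -1.14 ± 0.04 (SE, limma adjusted p = 5.21e-10), with -0.76 on the second AURKB probe set, 239219_at. On the latter only the CUTL1 change passed the test (limma adjusted p = 0.00396), with adjusted p of 0.0547 in CEM, 0.196 in DND41 and 0.126 in Jurkat. AURKA (208079_s_at) read 11.19 and 11.17 with DMSO and 11.11 and 11.08 with PD-0332991 in CEM, and 11.28 and 11.43 against 10.81 and 10.61 in CUTL1. It read 11.00 and 10.92 against 10.60 and 10.63 in DND41, and 10.43 and 10.33 against 9.44 and 9.51 in Jurkat. The CEM arrays differed by less than the test could call, with a change of -0.08 (95% interval -0.26 to 0.09, limma adjusted p = 0.491), whereas AURKA fell by 0.35 in DND41, 0.64 in CUTL1 and 0.91 in Jurkat. Without DND41 DMSO replicate 1 the DND41 value was -0.31 (adjusted p = 0.0662). The average was -0.50 ± 0.04 (SE, limma adjusted p = 1.37e-06), and -0.53 on the probe set 204092_s_at.

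**Figure D2:**
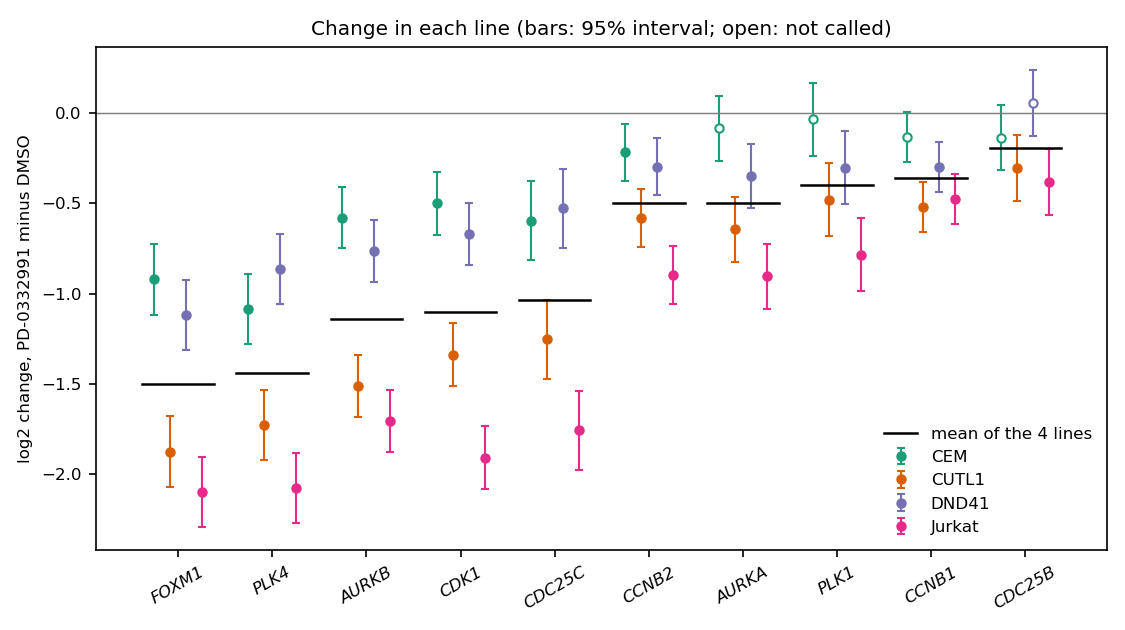
Log2 change with PD-0332991 (vertical axis) of each member in each line, with 95% intervals from limma, open points for changes that did not pass the test and black bars for the mean of the 4 lines. Members are ordered by their average change, from FOXM1 at -1.50 to CDC25B at -0.19, and Jurkat is the lowest point of 9 members.

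The members' average changes fell into a lower and an upper set with a gap between -1.03 and -0.50. FOXM1, PLK4, AURKB, CDK1 and CDC25C made up the set of 5 with the larger falls, and CCNB2, AURKA, PLK1, CCNB1 and CDC25B the set of 5 with the smaller falls. The same split held inside each line without overlap on the probe set that stood for each gene. The change of least size in the first set was -0.50 in CEM, -1.25 in CUTL1, -0.53 in DND41 and -1.71 in Jurkat. The one of greatest size in the second set was -0.22, -0.64, -0.35 and -0.91. On other probe sets the sets overlapped. In Jurkat 239219_at of AURKB (-0.59) and 217010_s_at of CDC25C (-0.89) changed less than AURKA (-0.91). The treated Jurkat arrays of both probe sets lay below the limit for testing, 4.88. In DND41 239219_at of AURKB (-0.47) changed less than 228729_at of CCNB1 (-0.52). The sets were drawn after the values were seen, so they are a description with no test. Related members lay on opposite sides: the kinase CDK1 and its cyclins, CDC25C and CDC25B, PLK4 and PLK1, and AURKB and AURKA.

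Whether related members changed unequally was tested for 5 pairs, as the change in the log2 difference of both genes on the same array, with treatment labels permuted within lines over all possible assignments and p-values adjusted over the 5 pairs. CDK1 fell by 0.75 log2 units more than CCNB1, and every line showed that direction, from -0.37 in CEM and in DND41 to -0.82 in CUTL1 and -1.43 in Jurkat. PLK4 fell by 1.04 more than PLK1 (0.56 in DND41 to 1.29 in Jurkat), CDC25C by 0.84 more than CDC25B (0.46 in CEM to 1.37 in Jurkat) and AURKB by 0.65 more than AURKA (0.41 in DND41 to 0.87 in CUTL1). Each of these 4 differences had exact two-sided p = 0.00154, the smallest that the assignments can give, and adjusted p = 0.00193. They rest on 1 probe set a gene. The Aurora difference ran from 0.53 to 0.69 over 17 alternatives. On 239219_at of AURKB alone, which was not put through the pair test, the average change was -0.76, against -0.50 for AURKA. In Jurkat that probe set changed by -0.59, less than AURKA at -0.91, but its treated arrays there read 4.16 and 4.11, below the limit of 4.88. CCNB2 fell by 0.14 more than CCNB1 (exact p = 0.0278, adjusted p = 0.0278), but the lines did not all share that direction: the difference was 0.42 in Jurkat, 0.09 in CEM, 0.06 in CUTL1 and -0.0048 in DND41. With the mean of all probe sets of each gene it turned to -0.09 (adjusted p = 0.29), and it missed the threshold without CUTL1 DMSO replicate 2 (0.13, adjusted p = 0.0679) or CUTL1 treated replicate 1 (0.13, adjusted p = 0.0648). These differences compare changes and not levels, since levels of different probe sets are not on 1 scale.

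**Figure D3:**
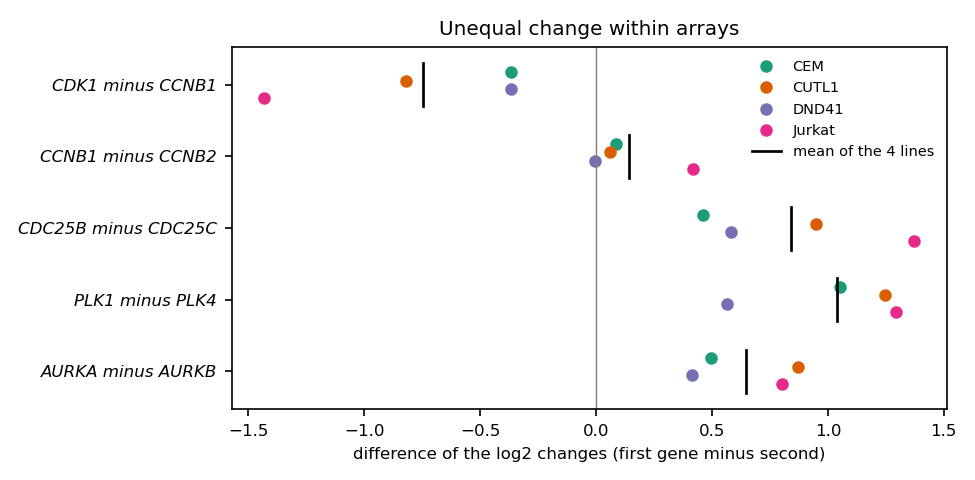
Difference between the log2 changes of related members (horizontal axis, first gene minus second) in each of the 4 lines, with bars for the mean. CDK1 minus CCNB1 lies below 0 in all lines, the CDC25, Polo and Aurora pairs lie above 0 in all lines, and CCNB1 minus CCNB2 straddles 0.

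The size of the change differed between the 4 lines for 9 of the 10 members by limma's F test on 3 degrees of freedom, against 12.6% of all genes, and CDC25B was the exception (adjusted p = 0.0749). Jurkat had the largest fall in 9 members on the probe set that stood for each gene, but on 231534_at of CDK1 (-2.03), 217010_s_at of CDC25C (-1.12) and 239219_at of AURKB (-1.24) it was CUTL1, against -1.39, -0.89 and -0.59 in Jurkat. The smallest change on the probe set that stood for each gene was in CEM for 7 and in DND41 for CDC25B (0.06), CDC25C and PLK4. On 217010_s_at of CDC25C and 204886_at of PLK4 it was in CEM (-0.33 and -1.04), against -0.95 and -1.24 in DND41. On 210559_s_at of CDK1 and 239219_at of AURKB it was in DND41 (-0.72 and -0.47), against -0.76 and -0.74 in CEM. On 232764_at of CCNB2 it was in CUTL1 (-0.04, against -0.21 in CEM). Pairs of lines were then compared, each sharing its arrays with other pairs. The changes in Jurkat and CEM differed for 8 members (1.97% of all genes), with Jurkat lower by 1.41 for CDK1, 1.18 for FOXM1 and 1.13 for AURKB. Jurkat and DND41 differed for 9 members (9.52%), all but CCNB1, and CEM and CUTL1 for 7 (5.14%), all but CCNB2, CDC25B and PLK1. CUTL1 and DND41 differed for 5 (7.15%), which were FOXM1, CDK1, CDC25C, PLK4 and AURKB. CUTL1 and Jurkat differed for CDK1 alone (2.55% of all genes), whose fall was larger by 0.57 in Jurkat (95% interval 0.33 to 0.82, limma adjusted p = 0.0214). Between CEM and DND41 limma called 0 members (9.31% of all genes), and at an unadjusted p under 0.05 it called 1, AURKA, with a difference of 0.26 (95% interval 0.01 to 0.52). For FOXM1 the difference between CUTL1 and Jurkat had a 95% interval of -0.05 to 0.50, and that between CEM and DND41 one of -0.08 to 0.47.

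Levels before treatment also differed between lines. Under DMSO the F test passed for 9 of the 10 members, near the share among all genes (71.2%), and PLK1 was the exception (adjusted p = 0.131). Jurkat was the low line: 8 members were lower there than in CEM (48.1% of all genes differed), 9 lower than in CUTL1 (49.5%) and 8 lower than in DND41 (46.9%). The shares count genes that differed in either direction. No member was called higher in Jurkat, so the member counts are the same in either direction. AURKB showed the widest such gap to CEM, 1.07 log2 units, and CDK1 did not differ between the pair (0.02). CDC25B had the widest gap to CUTL1, 1.25. The other lines were closer to each other: CEM and CUTL1 differed for CDK1 and CDC25B alone (43.4% of all genes), CEM and DND41 for CDK1, CCNB2, CDC25B and AURKA (45.7%), and CUTL1 and DND41 for CCNB1, CCNB2, CDC25B, CDC25C and AURKA (44.1%). For FOXM1 the DMSO levels of CEM, CUTL1 and DND41 did not differ beyond their spread, and Jurkat lay below each of them by 0.48 to 0.59.

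Across all probe sets of the members, 19 of 23 passed the filter on dim probe sets, and 4 did not (232768_at of CCNB2, 216914_at of CDC25C, 211088_s_at of PLK4 and 208080_at of AURKA). Fitted by probe set, 18 of the 19 fell on average, against 19.2% of all probe sets tested, and the exception was 232764_at of CCNB2. In single lines 8 of the 19 fell in CEM (9.13% of all probe sets lower), 17 in CUTL1 (11.3%), 16 in DND41 (16.5%), and 16 in Jurkat (9.58%). In Jurkat the AURKB probe sets gave -1.71 and -0.59 and those of CDC25C -1.76 and -0.89. The size of the Jurkat fall of these members, and its place among the lines, thus differed between probe sets. The smaller values came from dim probe sets. In Jurkat 239219_at of AURKB read 4.46 and 4.98 with DMSO and 4.16 and 4.11 with PD-0332991, where the limit was 4.88. The CDC25C probe set 217010_s_at read 5.33 and 5.47 against 4.45 and 4.57. What such low levels did to the size of a change was not tested.

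**Figure D4:**
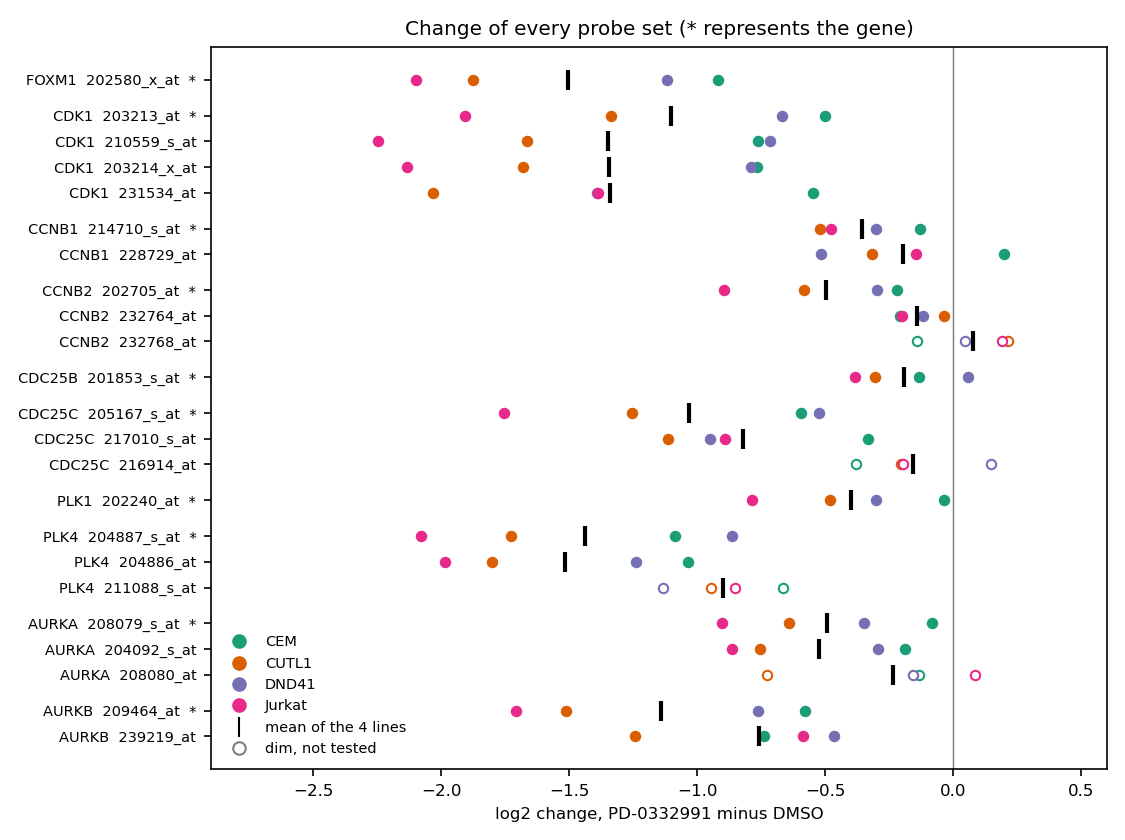
Log2 change (horizontal axis) of all 23 probe sets of the members in each line, with black bars for the mean of the 4 lines, an asterisk at the probe set that represents each gene and open points for the 4 probe sets too dim to test. The 4 CDK1 probe sets lie between -1.35 and -1.10 on average, and 228729_at of CCNB1 is the only testable probe set besides CDC25B with a point above 0.

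Most genes listed around the members in the same pathway fell too. Of 48 listed pathway genes 47 could be tested, and CENPJ had no probe set with a single symbol. On average 34 of the 47 fell, 3 rose and 10 were not called, with a median change of -0.73. Among all tested genes 20.0% were lower and 26.7% higher on average, which is the background for every list count on the average change below. The list of brakes on CDK1 and checkpoint kinases also holds CDC25A, a CDK-activating phosphatase that the checkpoint targets, and 5 of its 7 genes fell. The largest changes were those of CHEK1 (-2.17), the checkpoint kinase that restrains CDC25, of CDC25A itself (-2.16) and of WEE1 (-1.45), which places an inhibitory phosphate on CDK1. ATM, a kinase of the DNA break response, rose by 0.46, and ATR changed by 0.11 (limma adjusted p = 0.0925). So both the RNA of an activator (CDC25A) and those of inhibitors (WEE1, and PKMYT1 at -1.36) were lower in treated cells.

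Among cyclin partners 4 of 6 fell, led by CDK2 (-1.50), CCNA2, the cyclin of S and G2 (-1.17), and CKS1B (-0.86), a small CDK-binding subunit. CKS2 changed by -0.11 (adjusted p = 0.0754) and CCNB3 by -0.08 (adjusted p = 0.357) in limma. Of 10 partners and relatives of the Aurora and Polo kinases 6 fell. BIRC5 (-0.97) and CDCA8 (-0.88), which sit with AURKB in the passenger complex, led, followed by TPX2 (-0.73), the spindle factor that activates AURKA. AJUBA rose by 0.26, and PLK2 (-0.24), PLK3 (0.11) and AURKC (0.01) were not called. In the Greatwall branch MASTL, the kinase that shuts off the phosphatase opposing CDK1, fell by 2.00 and its substrate ARPP19 by 0.11. ENSA (0.05), PPP2R2A (0.00) and PPP2R2D (-0.09) were not called. Of the 5 centriole genes tested 4 fell, with STIL, which binds PLK4, at -1.51, CEP152 at -1.36 and SASS6 at -0.76, and CEP63 changed by -0.06 (not called).

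Among the MuvB core, B-MYB and late genes linked to FOXM1, 13 of 14 fell on average and 1 rose (20.0% of all genes lower). MYBL2, which encodes B-MYB, fell by 1.84, LIN9 of the MuvB core by 1.08, and TOP2A, the topoisomerase of G2 and mitosis, by 0.97. LIN37, another MuvB subunit, rose by 0.22. By line, 7 of the 14 fell in CEM (11.6% of all genes lower), 13 in CUTL1 (12.7%), 8 in DND41 (17.1%) and 11 in Jurkat (11.4%), with medians of -0.32, -0.88, -0.44 and -1.13. As a comparison, a list of 28 genes of the G1/S step and of DNA replication, whose products act before mitosis, had a median change of -2.13, and 28 of 28 fell, again against 20.0% of all genes. Of these, 24 fell further on average than FOXM1, the member with the largest fall, 28 of 28 did so in DND41 and 17 of 28 in Jurkat.

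**Figure D5:**
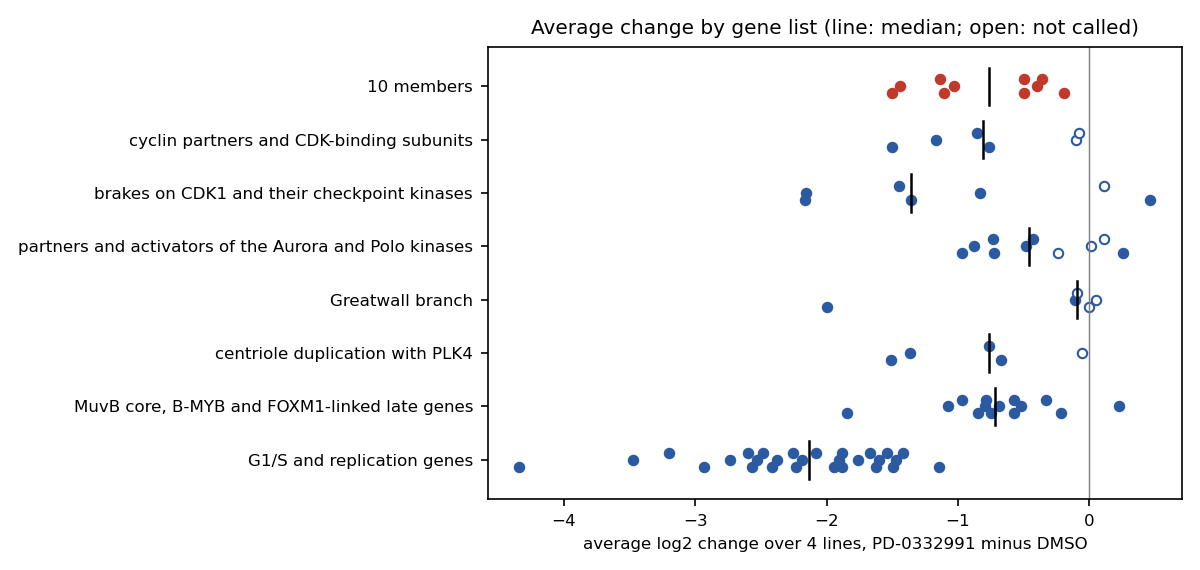
Average log2 change over the 4 lines (horizontal axis) of the 10 members, of 6 lists of pathway genes and of 28 G1/S and replication genes, with 1 point a gene, open points for genes not called and bars for list medians. The members' median is -0.77 and that of the G1/S and replication genes -2.13.

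The levels of most members over the 8 groups ran closely together, which is given as a description, since the groups share their treatment and line. Pearson's r between pairs of members over the 8 group means had a median of 0.93 and ran from 0.44 (CDC25B and FOXM1) to 0.99 (PLK4 and FOXM1). CDC25B stood apart, with r of 0.44 to 0.61 to FOXM1, CDK1, PLK4, AURKB, CDC25C and PLK1, and of 0.75 to 0.86 to CCNB1, CCNB2 and AURKA. The usual r between other tested genes is not given here. The 5 tested genes outside the set with the highest r to FOXM1 were NUP35 (0.997), ASF1B (0.995), CKAP2L (0.993), RAD51AP1 (0.992) and NCAPH (0.991). For CDK1 they were NCAPH (0.988), CKAP2L (0.985), NUP35 (0.984), KIF18B (0.979) and CDKN3 (0.975), so 3 genes were on both lists. Their average changes ranged from -0.66 (NUP35) to -2.02 (ASF1B).

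The 2 arrays of a group correlated with r of 0.993 to 0.998 over all genes. All 8 T cell markers listed (CD3D, CD3E, CD3G, CD247, CD2, CD5, CD7 and LCK) were above the dim limit in all 8 groups. Their summed intensity was 24603 to 36456 over the DMSO groups and 28966 to 41622 over the treated groups, and 7 of the 8 rose on average (26.7% of all genes higher), with a median change of 0.35. Of the markers of other cell types MS4A1, PAX5, CD14, LYZ, ITGAM, MPO, KRT19, CDH1, COL1A2, COL3A1 and CDH5 were below the dim limit in every group. CD79A had group means of 7.48 to 10.86 and COL1A1 of 7.44 to 7.77. CD79B was at 7.53 and 7.76 in CEM, 7.03 and 6.78 in DND41, and 5.24 to 5.53 in CUTL1 and Jurkat. PECAM1 was at 9.85 to 10.79 in CEM, DND41 and Jurkat but at 5.62 and 5.86 in CUTL1. The highest group mean among the remaining markers was 5.94 (HBB). On average CD79A rose by 0.25, PECAM1 by 0.35 and ALAS2 by 0.25, and in CEM KRT8 fell by 0.44. Those that reached the limit in at least 1 line were 2 of 5 for B cells, 1 of 5 for myeloid cells, 4 of 5 for erythroid cells and megakaryocytes, 3 of 5 for epithelium, and 3 of 6 for fibroblasts and endothelium. The summed intensity of the myeloid markers was 90.6 to 102 with DMSO and 93.7 to 106 with PD-0332991, and that of the B cell markers 262 to 1518 and 274 to 2016. It was 159 to 185 and 163 to 187 for the erythroid and megakaryocyte list, 101 to 174 and 116 to 147 for the epithelial list, and 305 to 1593 and 335 to 2045 for the fibroblast and endothelial list. Their part in the members' changes was not tested.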

How the data were processed

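The series holds 16 arrays, 2 for each of 8 groups. Per the labels' protocols, total RNA was extracted with a Qiagen kit, amplified (Nugen Ovation V2) and biotin-labelled. The deposited intensity values were made by the authors with RMA, per the submitters' processing notes (version not given in the sources used here). They are linear, from 4.42 to 26097, with array medians of 28.5 to 31.2, although log2 values had been assumed, and log2 was taken with no pseudocount. Of 54675 probe sets 41097 carry 1 gene symbol, 1801 several and 11777 are unnamed here, and 0 of the symbols changed against RefSeq GRCh38.p14.

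The probe set with the highest mean stood for a gene, and 6292 of 19775 genes were too dim to test. limma 3.58.1 in R 4.3.3 fitted 8 group means, with empirical Bayes (8 residual and 3.32 prior degrees of freedom), two-sided tests and Benjamini-Hochberg adjustment over the 13483 genes tested, with calls at 0.05. Probe sets were fitted separately. Pairs of members were tested by exact permutation. The fit was tested on simulated data. Promoter letters were searched in Python 3.11.15.

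The members and all gene lists were chosen with earlier results of these data known. Named were all 10 members; of each pathway list, up to 3 called genes with the largest average change, every gene that rose and every gene not called where these were 5 or fewer; and the 5 genes most correlated with FOXM1 and with CDK1. The alternatives were other scalings, probe set choices, filters and spread estimates, a replicate block, each line as 1 replicate, and leaving out each array or line. No sample was left out.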

Additional observations from a re-analysis of the deposited data

Results flagged for a closer look

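For 9 of the 10 members the change with PD-0332991 differed between the 4 lines by limma's F test of the differences between line effects, which is what marked them. The adjusted p was 0.000153 for CDK1, whose change ran from -0.50 in CEM to -1.91 in Jurkat. It was 0.000213 for AURKB (-0.58 in CEM to -1.71 in Jurkat), 0.000446 for FOXM1 (-0.92 in CEM to -2.10 in Jurkat), 0.000468 for PLK4 (-0.87 in DND41 to -2.08 in Jurkat) and 0.000787 for CDC25C (-0.53 in DND41 to -1.76 in Jurkat). Among the members with smaller changes limma's adjusted p was 0.00443 for AURKA (-0.08 in CEM to -0.91 in Jurkat), 0.00527 for CCNB2 (-0.22 in CEM to -0.90 in Jurkat), 0.0168 for PLK1 (-0.04 in CEM to -0.79 in Jurkat) and 0.0402 for CCNB1 (-0.13 in CEM to -0.52 in CUTL1).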

How the results depend on the processing

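Over up to 31 alternatives the average change of all 10 members kept its direction, and that of FOXM1 ran from -1.70 to -1.31. The shares of all genes called under the alternatives are not given here, so the member counts in this section have no background beside them. Without the _x_at and _s_at probe sets only 6 members could be tested: 6 were called on average, 3 in CEM, 5 in CUTL1 and 5 in Jurkat, and 5 differed between lines in DMSO. Of those testable, CCNB1, read by another probe set, lost its calls in CUTL1 (limma adjusted p = 0.0544) and Jurkat (0.383), and CCNB2 in CEM (0.0593). Leaving out 1 array or line gave 9 to 10 members called on average, 5 to 6 in CEM, 9 to 10 in CUTL1, 6 to 9 in DND41, 9 to 10 in Jurkat, 7 to 9 whose change differed between lines, and 9 to 10 in DMSO. Values that turned sign were not called: CDC25B in DND41 was -0.0174 with arrays centred on their medians and -0.0242 to 0.139 without 1 array; PLK1 in CEM was -0.180 to 0.110 without 1 array; CCNB1 in CEM was 0.0322 with the mean of all probe sets and 0.196 without the _x_at and _s_at ones. CCNB1 minus CCNB2 was -0.0895 with the mean of all probe sets. For these the cause was not tested.

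Same-numbered arrays of a line deviated together with r of 0.08 in CEM, 0.19 in CUTL1, -0.11 in DND41 and 0.10 in Jurkat. No strong shared shift of same-numbered arrays was thus seen, which cannot show whether they came from the same culture or day. With the replicate block 10 members fell on average, 5 in CEM, 10 in CUTL1, 9 in DND41 and 10 in Jurkat, the CEM call of CCNB2 being lost (limma adjusted p = 0.0565). A block within each line, chosen after seeing the data, gave the same counts (CCNB2 in CEM, adjusted p = 0.109). Another scaling moved the median of all genes in DND41 from 0.01 to -0.06 at most.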
